A study of Mus musculus with 12 samples.

Results

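The SLC25 genes encode the carrier proteins of the inner mitochondrial membrane, and their RNA was followed here in mouse hippocampus, in the cell body layer and the dendritic layer of CA1 and of CA2, each cut out by laser capture. Members were all genes whose array symbol starts with Slc25a, taken from features with a single gene symbol, and 46 such genes were found among 30141 genes. CA1 and CA2 are adjoining fields of pyramidal neurons. The cell body layer (stratum pyramidale) is packed with their somata, and the dendritic layer (stratum radiatum) holds their apical dendrites together with axons, interneurons, glia and blood vessels. All 12 arrays, 3 for each piece, came from male mice of 6 to 8 weeks from separate litters that carried a fluorescent reporter under the Amigo2 gene, written Amigo2-EGFP in the design text and Amigo2-GFP with C57BL/6J in the strain label. Amigo2 marks CA2 neurons. The animals were untreated as far as the labels say, the reporter was common to all 4 groups, and whether it guided the capture is not given in the sources used here.

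A carrier of this family is made in the cytosol, handed through the outer membrane and inserted into the inner membrane, where it exchanges a set of metabolites for others or moves one along with protons. Together the carriers pass ADP and ATP, phosphate, di- and tricarboxylates, amino acids, cofactors and metals, and so link the cytosol to oxidative phosphorylation, amino acid metabolism and haem and iron-sulphur cluster synthesis. In brain, the aspartate/glutamate carrier of neurons feeds reducing equivalents into mitochondria as part of the malate-aspartate shuttle, and mitochondria are found in dendrites, axons and glia as well as in somata. A few members work elsewhere: Slc25a17 lies in the peroxisome membrane and Slc25a46 in the outer mitochondrial membrane.

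The values are log2 expression as the authors normalized it, on which a difference of 1 is a 2-fold difference. A level is that of a gene's probes, so levels are compared across arrays and never between genes. Each gene was tested with limma over all genes, and a gene was called higher or lower where the Benjamini-Hochberg adjusted p was under 0.05. An adjusted p below is always that of this limma fit. The 46 genes had 1 feature each. Of these, 6 had a mean level under the median of all features, 5.76, namely Slc25a2, Slc25a21, Slc25a24, Slc25a31, Slc25a48 and Slc25a54. The 46 genes varied little between arrays of a group: the median SD was 0.055 in the CA1 cell body layer, 0.107 in the CA1 dendritic layer, 0.061 in the CA2 cell body layer and 0.077 in the CA2 dendritic layer.

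The cell body pieces carried the neuron markers of their labels. All 6 CA2 neuron markers were called higher in the CA2 than in the CA1 cell body layer, with a median difference of 2.93, and 4 of 5 CA1 neuron markers were called lower. Between the dendritic layers these markers separated the regions less. There 1 of the 6 CA2 markers was called higher in CA2 (median 0.14) and 3 of the 5 CA1 markers lower. The dendritic layers held far more RNA of glia and vessels, with all 9 astrocyte, 8 microglial, 7 endothelial and 5 mural markers called higher there in both regions and median astrocyte differences of 2.10 in CA1 and 1.99 in CA2. The mean level of the astrocyte list ranged in CA1 from 7.40 to 7.43 over cell body and from 9.37 to 9.42 over dendritic arrays, and in CA2 from 7.57 to 7.63 and from 9.45 to 9.60. Of 6 pyramidal neuron markers, 3 were called lower and 1 higher in the CA1 dendritic layer, and 5 lower and 1 higher in that of CA2. The part of this cell makeup in the layer differences of the carriers was not tested. In captured tissue, fewer cells of a type and less RNA per cell cannot be told apart, which holds for every difference below. Transcripts of oocytes stood out on 3 arrays: the mean level of the 14 measured oocyte markers was 7.29 on CA2 cell body array 1 and 7.43 and 7.38 on CA2 dendritic arrays 2 and 3, against 5.29 to 5.71 on the other 9 arrays. Where a member's call involving CA2 was lost without these arrays, the value without them is given, although leaving them out leaves 2 arrays in the CA2 cell body group and 1 in the CA2 dendritic group, whose spread is then taken from the other groups.

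In CA1, 26 of the 46 SLC25 genes differed between the layers, 14 higher and 12 lower in the dendritic layer. Over all genes 46.8% were called, 28.3% higher and 18.5% lower, and among the 9261 genes within the interquartile range of the members' mean level (6.56 to 8.25) 56.4% were, of which 22 are members and 11 of those were called. The members' share was near the background. Leaving out replicate 1 or replicate 2 gave 15 called members, and leaving out CA1 cell body array 2 gave 17. The share of all genes called fell as well, to 33.1%, 32.2% and 36.2%. In CA2, 23 members were called, with 6 of them higher in the dendritic layer and 17 lower, where 34% of all genes and 46.7% of genes of like level were. Over all genes 16.2% were called higher and 17.8% lower there, while the lower calls made up 37% of the members. Among genes of like level 21.8% were called higher and 24.9% lower, and of the 22 members among them 4.55% and 40.9%. Without replicate 2, 14 members and 26.5% of all genes were called in CA2. The median layer difference was 0.10 over the members and 0.12 over all genes in CA1, and -0.09 and -0.03 in CA2. The CA1 split depended on the scaling, with 9 higher and 13 lower after each array was centred on its median and 10 higher and 9 lower after quantile normalization. The CA2 split did not move by more than 1 gene under either scaling. With the 3 oocyte arrays left out, 1 array remains in the CA2 dendritic group. Most of the 23 members called in CA2 then lost their call, and the share of all genes called fell as well. All 23 kept their sign, and the median layer difference was -0.13 over the members and -0.02 over all genes.

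**Figure D1:**
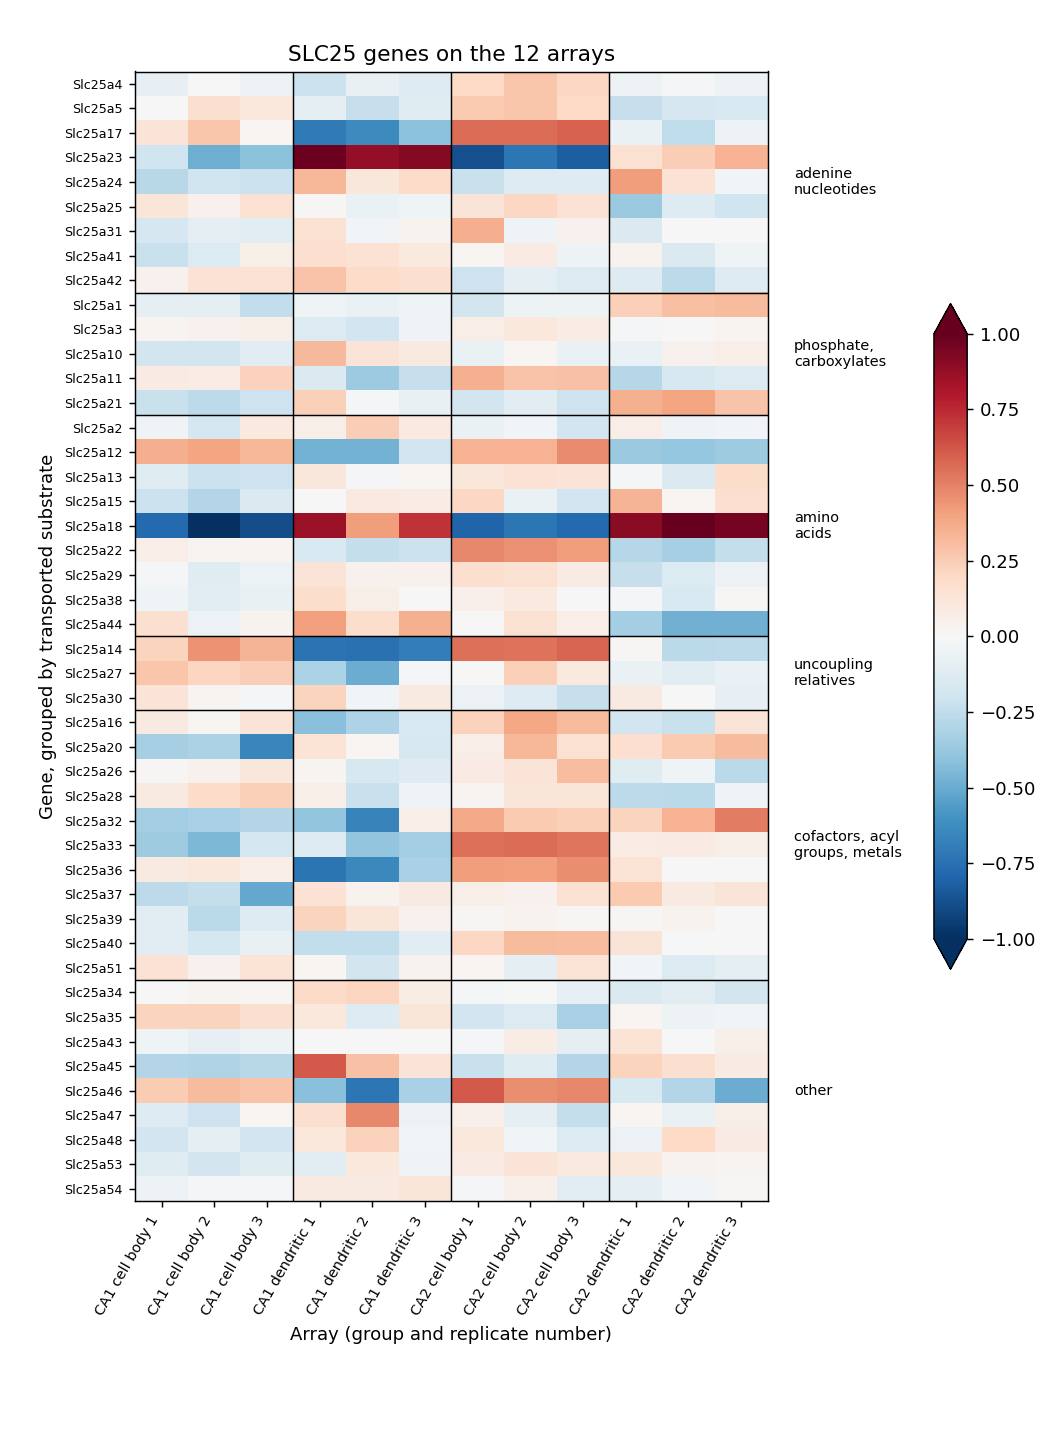
Level of each of the 46 SLC25 genes on each of the 12 arrays (columns, ordered by group and replicate), as log2 minus that gene's mean over the 12 arrays, with colours limited to 1 either side of 0 and genes grouped by the substrate they carry. Slc25a18 and Slc25a23 stand above their means on all 6 dendritic arrays, and Slc25a12, Slc25a46 and Slc25a17 above theirs on all 6 cell body arrays.

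The CA1 and CA2 layer comparisons share no array. In both, 5 genes were called higher in the dendritic layer (Slc25a18, Slc25a21, Slc25a23, Slc25a24 and Slc25a45) and 10 lower (Slc25a5, Slc25a11, Slc25a12, Slc25a14, Slc25a16, Slc25a17, Slc25a22, Slc25a28, Slc25a36 and Slc25a46). Those 10 are 21.7% of the members, where 12.2% of all genes were called lower in both regions. The 5 are 10.9%, against 12.4% of all genes. Without the oocyte arrays 4 members were called lower in both (8.7%, against 6.88% of all genes), Slc25a11, Slc25a12, Slc25a22 and Slc25a46, and 2 higher (4.35%, against 7.96%), Slc25a18 and Slc25a23. Slc25a44 was called in opposite directions (2.17% of the members, against 1.17% of all genes). Of the 46 members 10 were called in CA1 alone, 7 in CA2 alone and 13 (28.3%) in neither, which by itself does not show that the regions differ. Of all 30141 genes 6339 were called in CA1 alone, 2471 in CA2 alone and 45% in neither. Across the 46 genes the layer differences of the 2 regions had a Pearson r of 0.865 and a Spearman rho of 0.730, against 0.777 and 0.637 across all genes. These describe genes measured on the same 12 arrays, which are not independent replicates.

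**Figure D2:**
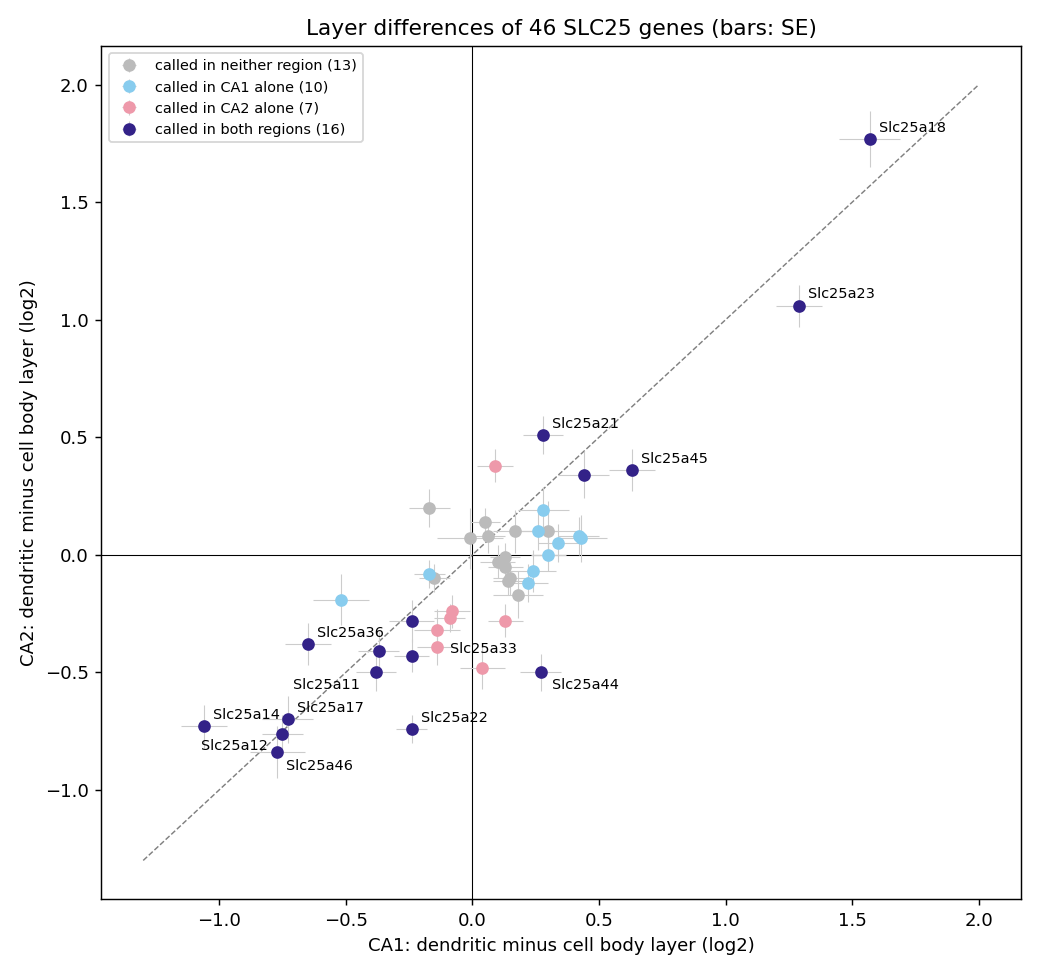
Layer difference (dendritic minus cell body, log2) of the 46 SLC25 genes in CA1 (x axis) and in CA2 (y axis), with bars for the standard error of the limma fit and colours for the regions in which a gene was called. The dashed line marks equal differences. Slc25a18 and Slc25a23 lie far up the line, a group with Slc25a12, Slc25a17, Slc25a46 and Slc25a14 lies far down it, and Slc25a44 and Slc25a22 fall below it.

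The carriers of glutamate split by layer. Slc25a18 and Slc25a22 encode the carriers that bring glutamate into mitochondria together with a proton, and Slc25a18 is known as the astrocyte form in brain. Slc25a18 read 7.17, 6.89 and 7.06 in the CA1 cell body layer and 8.81, 8.36 and 8.67 in the CA1 dendritic layer. In CA2 it read 7.14, 7.22 and 7.17 in the cell body layer and 8.85, 9.09 and 8.90 in the dendritic layer. Every dendritic array lay above every cell body array. The difference was 1.57 in CA1 (SE 0.12, adjusted p = 2.8e-06) and 1.77 in CA2 (SE 0.12, adjusted p = 1.1e-06), the largest of any member in each region, and it stayed called without the oocyte arrays, at 1.41 in CA2. All 9 astrocyte markers were called higher in the same layer, as given above, by medians of 2.10 and 1.99.

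Slc25a22, whose loss in humans causes an epileptic encephalopathy of infancy, ran the other way. It read 8.07, 8.03 and 8.03 in the CA1 cell body layer and 7.85, 7.77 and 7.79 in the CA1 dendritic layer, and 8.49, 8.46 and 8.42 against 7.72, 7.67 and 7.77 in CA2. The layers did not overlap in either region, and the CA2 cell body arrays were the highest of all 12. The dendritic layer was lower by 0.24 in CA1 (difference -0.24, SE 0.06, adjusted p = 0.00745) and by 0.74 in CA2 (-0.74, SE 0.06, adjusted p = 4.5e-06). The CA1 call was lost without replicate 1 (adjusted p = 0.0576), without replicate 2 (0.0778) and in a fit of the CA1 arrays alone (0.0505).

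The promoters of these 2 glutamate carriers are shown because the genes carry the same substrate and differed between layers in opposite directions. They are the 250 bases before a listed transcript start in RefSeq, build GRCm38.p6: chr6:120773518-120773767 on the plus strand for Slc25a18 and chr7:141437875-141438124 on the minus strand for Slc25a22. The Slc25a18 window lies inside the gene as annotated, whose outermost start is a few bases before the window, so it is not the sequence before that start. The Slc25a22 window ends at the edge of the annotated gene and is 1 of 3 windows listed for it. Capitals mark matches to the motifs searched on both strands.
Slc25a18: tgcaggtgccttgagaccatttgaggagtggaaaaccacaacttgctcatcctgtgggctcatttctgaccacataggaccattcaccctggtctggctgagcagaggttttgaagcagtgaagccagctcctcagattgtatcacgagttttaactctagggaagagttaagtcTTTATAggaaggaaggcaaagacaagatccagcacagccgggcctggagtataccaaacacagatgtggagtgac
Slc25a22: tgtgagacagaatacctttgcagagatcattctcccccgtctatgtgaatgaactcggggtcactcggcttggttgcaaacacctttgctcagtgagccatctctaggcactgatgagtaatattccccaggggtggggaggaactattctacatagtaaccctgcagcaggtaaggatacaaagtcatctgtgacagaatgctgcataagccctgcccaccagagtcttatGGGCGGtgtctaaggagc
The motifs were the GC box GGGCGG, the CCAAT box CCAAT and the TATA box TATAAA, which do not overlap one another in these windows. The Slc25a18 window held TATAAA on the other strand and no GC box, and the Slc25a22 window held GGGCGG. Of 21262 such windows of protein-coding genes, 42.6% held the GC box, 35.4% CCAAT and 11.6% TATAAA. Of the 46 windows listed for 36 members, 69.6% held the GC box, 45.7% CCAAT and 4.35% TATAAA. These are matches of letters and do not show binding.

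Apart from Slc25a13, the genes of the malate-aspartate shuttle were lower in the dendritic layer. Its carriers are the calcium-regulated aspartate/glutamate carriers Slc25a12 (aralar, the main form of neurons) and Slc25a13 (citrin, the main form of liver), and the oxoglutarate/malate carrier Slc25a11. Slc25a12 read 9.28, 9.31 and 9.25 in the CA1 cell body layer and 8.44, 8.44 and 8.72 in the CA1 dendritic layer. In CA2 it read 9.26, 9.26 and 9.39 against 8.54, 8.53 and 8.56. The layers were clearly apart in both regions, while the regions overlapped within each layer. The differences were -0.75 in CA1 (SE 0.08, adjusted p = 2.3e-05) and -0.76 in CA2 (SE 0.08, adjusted p = 2.1e-05), and neither call was lost under any alternative.

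Slc25a11 read 9.34, 9.33 and 9.49 in the CA1 cell body layer and 9.11, 8.89 and 9.03 in the CA1 dendritic layer, and 9.61, 9.54 and 9.55 against 8.97, 9.10 and 9.12 in CA2. Again no dendritic array reached a cell body array of its region. The differences were -0.38 in CA1 (SE 0.08, adjusted p = 0.00253) and -0.50 in CA2 (SE 0.08, adjusted p = 4.3e-04). Slc25a13 did not follow: its difference was 0.22 in CA1 (SE 0.08, adjusted p = 0.0447), a call lost under 17 of 24 alternatives, and -0.12 in CA2 (SE 0.08, adjusted p = 0.312). All 4 shuttle enzymes were called lower in the dendritic layers of both regions, as were 12.2% of all genes. The mean level of the 4 enzymes was 9.82 or higher on every array, so this share is not matched to them in level. Got1, the cytosolic aspartate aminotransferase, differed by -0.98 in CA1 (adjusted p = 5.3e-06) and -0.99 in CA2 (4.6e-06), and its mitochondrial counterpart Got2 by -0.81 (2.5e-04) and -0.93 (1.1e-04). The cytosolic and mitochondrial malate dehydrogenases Mdh1 and Mdh2 differed by -0.58 and -0.49 in CA1 (2.6e-04 and 1.6e-04) and by -0.57 and -0.54 in CA2 (3.0e-04 and 9.5e-05). In CA2, 3 of the 4 were called without the oocyte arrays, and Mdh1 was -0.60 (adjusted p = 0.0534). None of the 4 enzymes was called in the interaction, the CA2 layer difference minus that of CA1, nor were Slc25a11 and Slc25a12.

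Of the other amino acid carriers, Slc25a44, which imports branched-chain amino acids, and Slc25a29, which carries basic amino acids, are described with the interaction below. Slc25a15, the ornithine carrier, was called higher in the CA1 dendritic layer by 0.28 (SE 0.10, adjusted p = 0.0435), a call lost under 12 of 24 alternatives. Slc25a2, its close relative, and Slc25a38, which brings glycine in for haem synthesis, were called in no comparison. Of the 9 amino acid carriers together, 4 were called higher and 2 lower in the CA1 dendritic layer, where 28.3% and 18.5% of all genes were. In that of CA2, 1 was called higher and 4 lower, against 16.2% and 17.8% of all genes.

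The ADP/ATP carriers, which exchange the ATP made in the matrix for cytosolic ADP, were lower in the dendritic layer where they were called, by small amounts. Slc25a4, the form of heart, muscle and brain, read 11.19, 11.27 and 11.21 in the CA1 cell body layer and 11.06, 11.20 and 11.14 in the CA1 dendritic layer, which overlap. In CA2 it read 11.47, 11.55 and 11.48 against 11.22, 11.25 and 11.22, which do not. The differences were -0.09 in CA1 (SE 0.06, adjusted p = 0.214) and -0.27 in CA2 (SE 0.06, adjusted p = 0.00366), and the CA2 call was lost without replicate 2 (-0.25, adjusted p = 0.0611) and without the oocyte arrays (-0.22, 0.296). Slc25a5, the widely expressed form, read 10.71, 10.87 and 10.82 against 10.61, 10.48 and 10.59 in CA1 and 10.97, 10.99 and 10.91 against 10.48, 10.54 and 10.56 in CA2. Its layers were apart in both regions, with differences of -0.24 (SE 0.07, adjusted p = 0.0174) and -0.43 (SE 0.07, adjusted p = 6.7e-04). The CA1 call was lost under 7 of 24 alternatives, among them the fit without replicate 2 (-0.17, adjusted p = 0.199), and the CA2 call without the oocyte arrays (-0.44, 0.0882). Slc25a31, the testis form, was called in no comparison.

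The calcium-dependent ATP-Mg/phosphate carriers, which adjust the adenine nucleotide pool of the matrix, did not move together. Slc25a23, the form known from brain, read 9.58, 9.29 and 9.37 in the CA1 cell body layer and 10.76, 10.66 and 10.70 in the CA1 dendritic layer. In CA2 it read 8.90, 9.06 and 8.96 against 9.93, 10.03 and 10.13. Every CA2 array lay below the CA1 arrays of the same layer, and every dendritic array above the cell body arrays of either region. The layer differences were 1.29 in CA1 (SE 0.09, adjusted p = 2.0e-06) and 1.06 in CA2 (SE 0.09, adjusted p = 7.8e-06), or 0.75 in CA2 without the oocyte arrays, where it was still called.

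Its relative Slc25a25 was lower in the CA2 dendritic layer by 0.39 (difference -0.39, SE 0.08, adjusted p = 0.00195) and differed by -0.14 in CA1 (SE 0.08, adjusted p = 0.156). Slc25a24 was higher in the dendritic layer by 0.44 in CA1 (SE 0.10, adjusted p = 0.00517) and 0.34 in CA2 (SE 0.10, adjusted p = 0.0254), the CA2 call being lost under 8 of 23 alternatives, among them the fit without the oocyte arrays (0.48, 0.0635). Slc25a41, which lies next to Slc25a23 on chromosome 17 with no annotated gene between them in RefSeq, differed by 0.24 in CA1 (SE 0.09, adjusted p = 0.0463) and by -0.07 in CA2 (SE 0.09, adjusted p = 0.635), the CA1 call being lost under 16 of 24 alternatives.

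Slc25a17 and Slc25a42 carry coenzyme A and adenine nucleotides, the former in peroxisomes. Slc25a17 read 8.66, 8.81 and 8.55 in the CA1 cell body layer against 7.82, 7.89 and 8.12 in the dendritic layer, and 9.09, 9.09 and 9.12 against 8.46, 8.28 and 8.47 in CA2. The layers were apart in both regions and every CA2 array was above the CA1 arrays of its layer. The layer differences were -0.73 in CA1 (SE 0.10, adjusted p = 1.6e-04) and -0.70 in CA2 (SE 0.10, adjusted p = 2.4e-04). The CA2 call was lost without the oocyte arrays (-0.54, adjusted p = 0.0986).

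Among the 5 carriers of phosphate and of di- and tricarboxylates, the CA1 dendritic layer had 2 higher and 2 lower calls. Of all genes 28.3% and 18.5% were called there. The CA2 dendritic layer had 2 higher and 1 lower, against 16.2% and 17.8% of all genes. Slc25a3, the phosphate carrier that supplies ATP synthase and also brings in copper, read 8.49, 8.51 and 8.52 in the CA1 cell body layer and 8.33, 8.27 and 8.42 in the dendritic layer, and 8.53, 8.57 and 8.54 against 8.45, 8.46 and 8.49 in CA2. The layers were apart by little: -0.17 in CA1 (SE 0.06, adjusted p = 0.0435) and -0.08 in CA2 (SE 0.06, adjusted p = 0.377). The CA1 call was lost under 18 of 24 alternatives, with differences of -0.21 to -0.04. Slc25a1, the citrate carrier, was higher in the CA2 dendritic layer by 0.38 (SE 0.07, adjusted p = 0.00158, or 0.24 and 0.288 without the oocyte arrays), and Slc25a10, the dicarboxylate carrier, was higher in that of CA1 by 0.34 (SE 0.08, adjusted p = 0.00572), a call lost without replicate 1 (0.26, 0.0565). Slc25a21, the oxoadipate carrier, is one of the members with a dim probe signal. It read 4.05, 4.01 and 4.07 against 4.51, 4.26 and 4.20 in CA1 and 4.09, 4.17 and 4.07 against 4.63, 4.67 and 4.56 in CA2. Its dendritic arrays lay above the cell body arrays in both regions, by 0.28 (SE 0.08, adjusted p = 0.0154) and 0.51 (SE 0.08, adjusted p = 5.0e-04), though the CA1 call was lost under 7 of 23 alternatives and the CA2 call without the oocyte arrays (0.36, 0.165).

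The relatives of the uncoupling proteins, which are named for their likeness to the proton leak protein of brown fat, were lower in the dendritic layer where they were called. Slc25a14 read 7.77, 8.00 and 7.89 in the CA1 cell body layer and 6.81, 6.80 and 6.86 in the CA1 dendritic layer. In CA2 it read 8.10, 8.09 and 8.13 against 7.56, 7.28 and 7.29. The CA1 dendritic arrays were the lowest by a wide gap. The differences were -1.06 in CA1 (SE 0.09, adjusted p = 7.3e-06), the largest fall of any member there, and -0.73 in CA2 (SE 0.09, adjusted p = 1.0e-04), or -0.45 (adjusted p = 0.0653) in CA2 without the oocyte arrays. Slc25a27 read 7.82, 7.76 and 7.79 against 7.23, 7.05 and 7.53 in CA1 and 7.55, 7.78 and 7.64 against 7.48, 7.43 and 7.48 in CA2. The CA1 dendritic arrays were spread more widely than the others, and the differences were -0.52 in CA1 (SE 0.11, adjusted p = 0.00245) and -0.19 in CA2 (SE 0.11, adjusted p = 0.207). The interaction of Slc25a27 was 0.33 (SE 0.15, adjusted p = 0.165), and without CA1 dendritic array 3, the highest of its group, it was 0.46 (adjusted p = 0.0375) and the difference between the dendritic layers of the regions moved from 0.19 (SE 0.11, adjusted p = 0.176) to 0.32 (0.0281). Slc25a30 was called in no comparison.

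Of the 11 measured carriers of cofactors, acyl groups, pyrimidine nucleotides and metals, 3 were called higher and 3 lower in the CA1 dendritic layer, where 28.3% and 18.5% of all genes were. In that of CA2, 0 were called higher and 6 lower, against 16.2% and 17.8% of all genes. None of those 6 was called in CA2 once the oocyte arrays were left out, and 1 of the 11, Slc25a33, was called in the interaction. Slc25a36, a carrier of pyrimidine nucleotides, read 7.84, 7.86 and 7.82 against 7.02, 7.11 and 7.43 in CA1 and 8.17, 8.16 and 8.22 against 7.89, 7.75 and 7.76 in CA2. Its layers were apart in both regions, by -0.65 (SE 0.09, adjusted p = 2.7e-04) and -0.38 (SE 0.09, adjusted p = 0.00904). The CA2 call was lost without replicate 2 (-0.37, adjusted p = 0.0922) and without the oocyte arrays (-0.18, 0.594). Slc25a16, linked to coenzyme A import, was lower by 0.37 in CA1 (difference -0.37, SE 0.08, adjusted p = 0.00448) and by 0.41 in CA2 (-0.41, SE 0.08, adjusted p = 0.00311). The CA1 call of Slc25a16 was lost without replicate 1 (-0.31, adjusted p = 0.0767) and after quantile normalization (-0.23, 0.0579), and the CA2 call without replicate 2 (-0.30, 0.0697) and without the oocyte arrays (-0.46, 0.0843).

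Mitoferrins import iron, and the pair differed in CA1. Slc25a37, the form of erythroid cells, was higher in the CA1 dendritic layer by 0.42 (SE 0.08, adjusted p = 0.00195), and Slc25a28, the general form, differed by -0.24 (SE 0.09, adjusted p = 0.0404), a call lost under 12 of 24 alternatives. In CA2 they differed by 0.08 (SE 0.08, adjusted p = 0.556) and -0.28 (SE 0.09, adjusted p = 0.0281, lost under 9 of 24 alternatives, with -0.41 and 0.143 without the oocyte arrays). The carnitine/acylcarnitine carrier Slc25a20, which brings fatty acyl groups in for oxidation, was higher in the CA1 dendritic layer by 0.43 (SE 0.10, adjusted p = 0.00596), as was the glutathione carrier Slc25a39, by 0.30 (SE 0.07, adjusted p = 0.00471), a call lost without replicate 1 (0.28, 0.0514) and without replicate 2 (0.26, 0.0692). The related Slc25a40 differed by -0.24 in CA2 (SE 0.07, adjusted p = 0.0246), a call lost under 8 of 24 alternatives. The carrier of S-adenosylmethionine, Slc25a26, differed by -0.32 in CA2 (SE 0.09, adjusted p = 0.0214), a call lost under 7. Both calls were lost without the oocyte arrays, at -0.15 (adjusted p = 0.503) for Slc25a40 and -0.40 (0.121) for Slc25a26. The NAD carrier Slc25a51 was called in no comparison.

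Among the members with other or less studied roles, Slc25a46 and Slc25a45 had the largest layer differences. Slc25a46, an outer membrane protein that bears on mitochondrial shape and is mutated in an optic atrophy with neuropathy, read 9.44, 9.50 and 9.47 against 8.77, 8.46 and 8.86 in CA1 and 9.80, 9.65 and 9.67 against 9.03, 8.89 and 8.69 in CA2. The layers were apart in both regions, by -0.77 (SE 0.11, adjusted p = 1.9e-04) and -0.84 (SE 0.11, adjusted p = 1.2e-04), and both calls held under every alternative. Slc25a45 read 6.27, 6.26 and 6.28 against 7.17, 6.85 and 6.69 in CA1 and 6.34, 6.44 and 6.27 against 6.78, 6.72 and 6.64 in CA2. All 6 dendritic arrays were above all 6 cell body arrays, by 0.63 in CA1 (SE 0.09, adjusted p = 3.0e-04) and 0.36 in CA2 (SE 0.09, adjusted p = 0.0113). The CA2 call of Slc25a45 was lost without replicate 2 (0.41, adjusted p = 0.0576), without replicate 3 (0.36, 0.0598), without CA2 cell body array 1 (0.30, 0.0608) and without the oocyte arrays (0.23, 0.499). Slc25a48 was called higher in the CA1 dendritic layer by 0.26 (SE 0.08, adjusted p = 0.0282), a call lost under 10 of 23 alternatives.

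**Figure D3:**
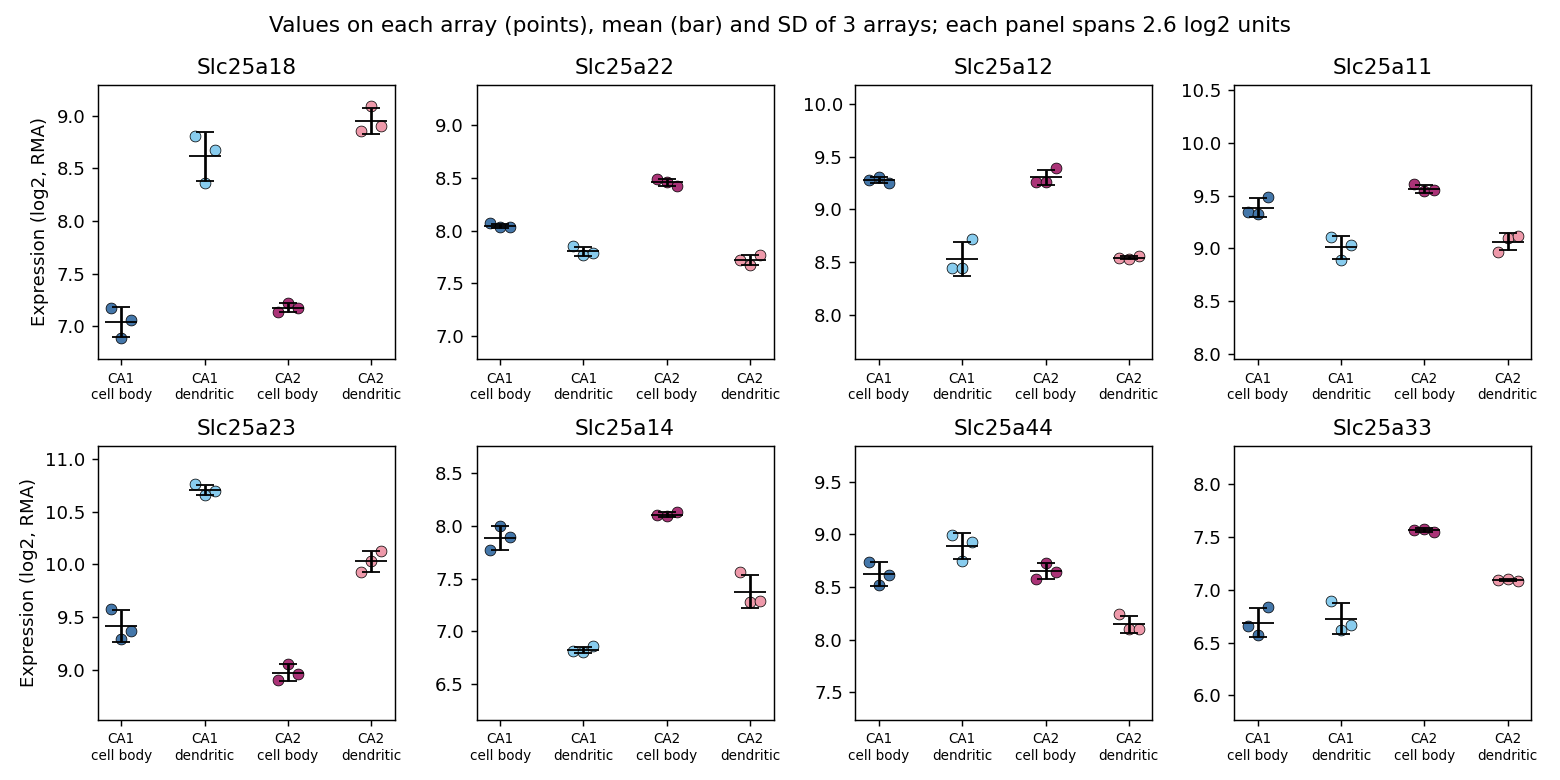
Level (log2) of 8 SLC25 genes on each of the 12 arrays, by group, with points for arrays and a line for the group mean. Slc25a18 and Slc25a23 are higher and Slc25a12, Slc25a11 and Slc25a14 lower in both dendritic groups, Slc25a22 is highest in the CA2 cell body layer, Slc25a44 is lowest in the CA2 dendritic layer, and Slc25a33 is highest in the CA2 cell body layer.

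The layer difference itself differed between CA2 and CA1 in 4 members, all with the lower value in CA2. Of all genes 11.6% were called in this interaction, 4.81% higher and 6.81% lower, and 14.5% of genes of like level were. The median interaction was -0.15 over the members and -0.11 over all genes. Of 6 pyramidal neuron markers 4 were called lower and 0 higher in the interaction (median -0.61). The part of the cell makeup in the members' interactions was not tested. The count of 4 is small and moved with single arrays. It was 1 without replicate 1, 2 or 3 and 8 without CA1 dendritic array 3. Without CA1 cell body array 1 or 2, CA2 cell body array 2 or CA2 dendritic array 1 it was 2. Of all genes 3.35%, 2.31% and 4.67% were called without replicate 1, 2 and 3, and 16.2% without CA1 dendritic array 3. Slc25a44 had the largest interaction. It read 8.74, 8.52 and 8.61 in the CA1 cell body layer and 8.99, 8.75 and 8.93 in the dendritic layer, but 8.58, 8.73 and 8.64 against 8.24, 8.10 and 8.10 in CA2. The cell body arrays of the regions overlapped, the CA1 dendritic arrays were the highest and the CA2 dendritic arrays the lowest. The layer difference was 0.27 in CA1 (SE 0.08, adjusted p = 0.0217, lost under 8 of 24 alternatives) and -0.50 in CA2 (SE 0.08, adjusted p = 6.4e-04), and the interaction was -0.77 (SE 0.12, adjusted p = 0.00302). The interaction was lost without replicate 3 (-0.72, adjusted p = 0.0571) and was still called without the oocyte arrays.

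For Slc25a22, whose array values are given above, the interaction was -0.50 (SE 0.08, adjusted p = 0.00526), lost without replicate 1 (-0.47, adjusted p = 0.0844), without replicate 2 (-0.48, 0.0975) and without the oocyte arrays (-0.53, 0.096). Slc25a33, a carrier of pyrimidine nucleotides, read 6.66, 6.57 and 6.84 against 6.89, 6.62 and 6.67 in CA1 and 7.57, 7.58 and 7.55 against 7.09, 7.10 and 7.08 in CA2. The layers overlapped in CA1 and were apart in CA2, with differences of 0.04 (SE 0.09, adjusted p = 0.737) and -0.48 (SE 0.09, adjusted p = 0.00125). Its interaction of -0.51 (SE 0.12, adjusted p = 0.0239) was lost under 10 of 23 alternatives. Without the oocyte arrays the interaction was -0.61 (adjusted p = 0.149) and the CA2 difference -0.58 (0.0628). Slc25a29 read 7.11, 7.00 and 7.06 against 7.25, 7.16 and 7.16 in CA1 and 7.29, 7.27 and 7.20 against 6.89, 6.98 and 7.06 in CA2, with the dendritic layer above in CA1 and below in CA2. Its interaction was -0.41 (SE 0.10, adjusted p = 0.027), lost under 12 of 23 alternatives, with -0.56 and 0.0923 without the oocyte arrays. Its CA2 layer difference was -0.28 (SE 0.07, adjusted p = 0.0104), or -0.43 and 0.053 without them.

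CA2 was compared with CA1 within each layer. All CA1 arrays carry one run number and all CA2 arrays another, so a difference of region and one of run cannot be told apart here. In the cell body layer 14 members were called, 11 higher and 3 lower in CA2, where 21.1% of all genes (10.6% higher, 10.5% lower) and 27.4% of genes of like level were called. In the dendritic layer 13 were called, 8 higher and 5 lower, where 30.2% of all genes (11.6% higher, 18.6% lower) and 31.1% of genes of like level were. Markers of other cells moved with region too: oligodendrocyte markers were called higher in CA2 for 6 of 7 in the cell body layer (median 0.52) and 5 of 7 in the dendritic layer (median 0.55), and endothelial markers for 3 and 4 of 7 (median 0.33 in each). Of 6 pyramidal neuron markers, 2 were called higher and 1 lower in the CA2 cell body layer, and 0 higher and 4 lower in the dendritic layer (median -0.34). Of 9 interneuron markers, 1 was called higher and 1 lower in the cell body layer, and 4 higher and 2 lower in the dendritic layer. Microglial markers were called lower for 1 of 8 in the cell body layer and 6 of 8 in the dendritic layer (median -0.41), and the part of these cells in the carriers' differences was not tested. The cell body count was 5, 8 and 6 without replicate 1, 2 and 3 and 9 without CA1 cell body array 3, and the dendritic count was 5 without replicate 2. The shares of all genes called in these fits were 13.8%, 11.8%, 11.4% and 14.6%, and 12.2% in the dendritic layer. The median difference was 0.12 over the members and 0.02 over all genes in the cell body layer, and -0.03 and -0.11 in the dendritic layer. Centring each array on its median raised the median difference of all genes by 0.10 in the cell body layer and 0.11 in the dendritic layer and gave 20 higher and 2 lower in the cell body layer and 13 higher and 4 lower in the dendritic layer. Quantile normalization gave 19 higher and 2 lower, and 8 higher and 4 lower. With the oocyte arrays left out, some of the 14 and most of the 13 lost their calls, and the shares of all genes called fell as well. All of these members kept their sign.

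In the cell body layer the carriers of cofactors, acyl groups, pyrimidine nucleotides and metals held 6 of the 11 higher calls, and 0 of them were called lower. Of all genes 10.6% were called higher and 10.5% lower. The median difference of these carriers was 0.34, and 0.31 without the oocyte arrays, where some of the 6 calls were lost. Slc25a33 had the largest difference, 0.88 (SE 0.09, adjusted p = 6.2e-05), with every CA2 cell body array above every CA1 one, and it was called under every alternative. Slc25a20 read 6.80, 6.81 and 6.48 in the CA1 and 7.20, 7.46 and 7.28 in the CA2 cell body layer, and 7.27, 7.15 and 6.97 against 7.30, 7.39 and 7.45 in the dendritic layers. Its regions were apart in the cell body layer by 0.62 (SE 0.10, adjusted p = 0.00182), a call held under every alternative, and differed by 0.25 in the dendritic layer (SE 0.10, adjusted p = 0.0864). Slc25a32, the carrier of folate and FAD, read 6.73, 6.75 and 6.78 against 7.45, 7.34 and 7.31 in the cell body layers and 6.68, 6.41 and 7.14 against 7.30, 7.42 and 7.59 in the dendritic layers. CA2 was above CA1 in both layers, by 0.61 (SE 0.13, adjusted p = 0.00816) and 0.69 (SE 0.13, adjusted p = 0.00431). The Slc25a32 calls were lost without the oocyte arrays (0.55 and 0.60, adjusted p = 0.0736 and 0.16), the cell body call also without replicate 1 (0.56, 0.0883) and the dendritic call without replicate 2 (0.54, 0.0586).

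The cell body and dendritic comparisons of the regions share no array. In both, Slc25a17, Slc25a32, Slc25a33, Slc25a36 and Slc25a40 were called higher in CA2, and Slc25a23 and Slc25a42 lower. How many of all genes were called in both layers was not counted, so no share can be set beside these members. Slc25a33 differed by 0.36 in the dendritic layer (SE 0.09, adjusted p = 0.0115), a call lost under 5 of 24 alternatives: without the oocyte arrays (0.30, 0.262), without replicate 2 (0.31, 0.117), without replicate 3 (0.34, 0.054), without CA2 dendritic array 2 (0.32, 0.0529) and in a fit of the dendritic arrays alone (0.0685). Slc25a36 differed by 0.34 in the cell body layer (SE 0.09, adjusted p = 0.0267, lost under 10 of 24 alternatives, with 0.31 and 0.125 without the oocyte arrays) and by 0.61 in the dendritic layer (SE 0.09, adjusted p = 0.00144). Slc25a17 differed by 0.43 (SE 0.10, adjusted p = 0.011) and 0.46 (SE 0.10, adjusted p = 0.00737), and Slc25a40 by 0.40 (SE 0.07, adjusted p = 0.00278) and 0.24 (SE 0.07, adjusted p = 0.0314). The Slc25a17 calls were lost without the oocyte arrays (0.40 and 0.59, adjusted p = 0.0712 and 0.081) and without replicate 1 (0.43 and 0.37, 0.0777 and 0.0954), and the cell body call also without replicate 3 (0.35, 0.0745) or CA1 cell body array 3 alone (0.32, 0.059). The Slc25a40 call in the cell body layer was lost without replicate 2 (0.35, 0.0652), and that in the dendritic layer under 10 of 24 alternatives, with 0.34 and 0.113 without the oocyte arrays.

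Slc25a23 was lower in CA2 by 0.44 in the cell body layer (difference -0.44, SE 0.09, adjusted p = 0.00666) and by 0.68 in the dendritic layer (-0.68, SE 0.09, adjusted p = 7.2e-04). The former call was lost without replicate 1 (-0.32, adjusted p = 0.0594) and without replicate 3 (-0.46, 0.064), and the latter held under every alternative. Slc25a42 was lower by 0.25 (difference -0.25, SE 0.07, adjusted p = 0.0309, lost under 10 of 24 alternatives) and 0.38 (-0.38, SE 0.07, adjusted p = 0.00421, lost under 3). Both Slc25a42 calls were lost without the oocyte arrays (-0.22 and -0.34, adjusted p = 0.154 and 0.133). Of the members called in a single layer, Slc25a22 was higher in the CA2 cell body layer by 0.41 (SE 0.06, adjusted p = 7.4e-04) and differed by -0.08 in the dendritic layer (SE 0.06, adjusted p = 0.287). Slc25a44 was lower in the CA2 dendritic layer by 0.74 (difference -0.74, SE 0.08, adjusted p = 2.5e-04) and differed by 0.03 in the cell body layer (SE 0.08, adjusted p = 0.875). Slc25a14 was higher in the CA2 dendritic layer by 0.55 (SE 0.09, adjusted p = 0.002). Slc25a4 was higher in the CA2 cell body layer by 0.28 (SE 0.06, adjusted p = 0.00645), a call lost without each replicate in turn (adjusted p = 0.0664, 0.0797 and 0.0739) and without the oocyte arrays (0.0607). The remaining calls were Slc25a37 and Slc25a13, higher in the CA2 cell body layer by 0.42 (adjusted p = 0.00492) and 0.31 (0.0196), Slc25a1 and Slc25a21, higher in the CA2 dendritic layer by 0.34 (0.00672) and 0.30 (0.0205), and Slc25a29, lower there by 0.21 (difference -0.21, 0.0437). These were lost under 1, 8, 3, 7 and 19 of the alternatives. Without the oocyte arrays Slc25a1 was 0.26 (adjusted p = 0.212), Slc25a21 was 0.21 (0.356) and Slc25a29 was -0.36 (0.0962).

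**Figure D4:**
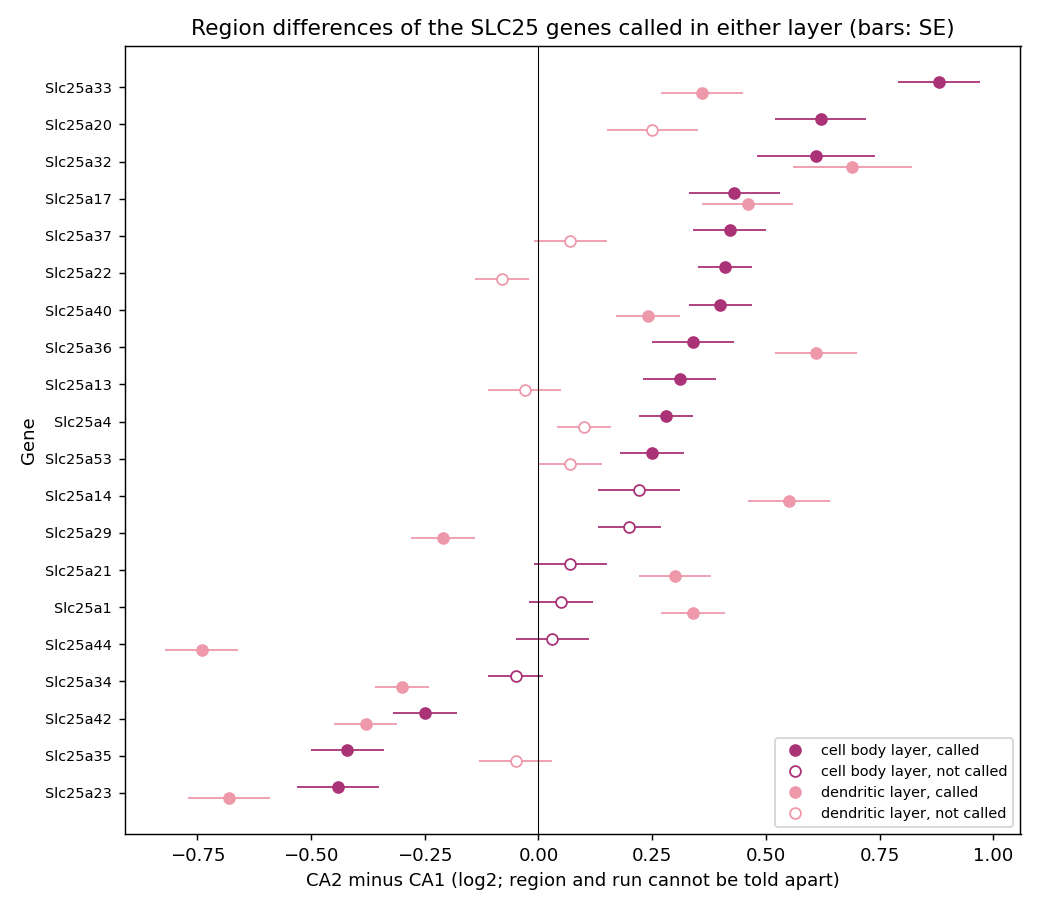
Difference between CA2 and CA1 (log2, with bars for the standard error of the limma fit) of the 20 SLC25 genes called in the cell body or the dendritic layer, 1 row a gene. Slc25a33, Slc25a20 and Slc25a32 lie furthest to the right in the cell body layer and Slc25a44 and Slc25a23 furthest to the left in the dendritic layer.

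In all, 38 of the 46 members were called in at least 1 of the 5 comparisons. How many of all genes were was not counted. In the CA1 layer comparison by itself 46.8% were called, and the share over 5 comparisons cannot be lower. The 38 members therefore have no like share beside them. The 8 members called in none were Slc25a2, Slc25a30, Slc25a31, Slc25a38, Slc25a43, Slc25a47, Slc25a51 and Slc25a54. Their layer differences lay between -0.15 and 0.30 in CA1 and between -0.17 and 0.14 in CA2. Slc25a34, Slc25a35 and Slc25a53 were called in region comparisons alone. Slc25a34 was lower in the CA2 dendritic layer by 0.30 (difference -0.30, SE 0.06, adjusted p = 0.0044, lost under 4 of 24 alternatives, with -0.31 and 0.132 without the oocyte arrays), Slc25a35 was lower in the CA2 cell body layer by 0.42 (-0.42, SE 0.08, adjusted p = 0.00437, lost without replicate 1 at 0.055), and Slc25a53 was higher there by 0.25 (SE 0.07, adjusted p = 0.0313, lost under 10, with 0.23 and 0.146 without the oocyte arrays).

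Most genes of the machinery that brings carriers into the inner membrane were lower in the dendritic layer. Of 12 measured genes of the route from the outer membrane receptors to the TIM22 insertase, 0 were called higher and 9 lower in CA1, with a median of -0.36, and 0 higher and 8 lower in CA2, with a median of -0.39. Of all genes, 18.5% were called lower in CA1 and 17.8% in CA2. Among genes of like level to the carriers (6.56 to 8.25) 25.7% and 24.9% were. The mean level of the import genes was 8.57 or higher on every array, so these shares are not matched to them in level. With the oocyte arrays left out, 4 of the 12 were called lower in CA2, with a median of -0.40. None was called in the interaction. Tomm70a, the outer membrane receptor that binds carrier precursors, differed by -1.29 in CA1 (SE 0.08, adjusted p = 1.2e-06) and -1.03 in CA2 (SE 0.08, adjusted p = 5.4e-06). The small chaperones of the intermembrane space Timm9 and Timm10 differed by -0.96 and -0.76 in CA1 (adjusted p = 1.9e-05 and 1.6e-04) and by -0.66 and -0.76 in CA2 (2.9e-04 and 1.9e-04), the CA2 call of Timm10 being lost without the oocyte arrays (-0.58, 0.108). Agk, a subunit of the insertase, differed by -0.78 in CA1 (SE 0.08, adjusted p = 1.8e-05) and -0.99 in CA2 (SE 0.08, adjusted p = 3.5e-06).

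Mitochondrial transporters and channels outside the family were called in both directions: of 18 measured, 5 were higher and 6 lower in the CA1 dendritic layer, and 4 higher and 6 lower in that of CA2. Of all genes 28.3% were called higher and 18.5% lower in CA1, and 16.2% and 17.8% in CA2, and without the oocyte arrays 1 of the 18 was called higher and 2 lower in CA2. Sfxn5, a sideroflexin, was higher by 1.99 in CA1 (SE 0.06, adjusted p = 1.5e-08) and 1.41 in CA2 (SE 0.06, adjusted p = 8.8e-08), while the outer membrane channel Vdac1 differed by -0.42 (SE 0.06, adjusted p = 3.9e-04) and -0.44 (SE 0.06, adjusted p = 3.0e-04), or -0.38 (0.1) in CA2 without the oocyte arrays. The pore of the calcium uniporter, Mcu, differed by -0.16 in CA1 (SE 0.08, adjusted p = 0.13) and -1.15 in CA2 (SE 0.08, adjusted p = 2.3e-06), and its regulator Micu3 by -1.22 (SE 0.12, adjusted p = 1.9e-05) and -1.11 (SE 0.12, adjusted p = 3.9e-05). In the interaction 4 of the 18 were called, all lower, where 11.6% of all genes were called: Mcu at -0.99 (adjusted p = 8.6e-04), Mcur1 at -0.69 (0.00606), Sfxn5 at -0.58 (0.00345) and Sfxn1 at -0.33 (0.038). Of these 4, Mcu alone was called without the oocyte arrays (-1.11, adjusted p = 0.0274). Among 4 measured relatives of carrier fold under other symbols, Mtch2, an insertase of the outer membrane, was called lower in both dendritic layers (-0.43 in CA1, adjusted p = 1.6e-04, and -0.42 in CA2, 2.0e-04), and Ucp3, an uncoupling protein of muscle, higher (0.55, 2.4e-04, and 0.38, 0.00339, or 0.26 and 0.251 in CA2 without the oocyte arrays).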

How the data were processed

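RNA of 4 captured pieces of tissue was measured on 12 arrays, 3 for each. The deposited log2 values came from RMA (a robust average over a feature's probes after background and quantile correction), per the submitters' processing notes. The sources used here do not give its software or whether both runs were normalized together. The quantile step of RMA equalizes the distributions of probe values, so a shift of most genes in one direction can be hidden. The medians of the deposited arrays still ran from 5.68 to 5.88. Arrays have no read depth, and precision is limited by their number.

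Of 72688 features, 2146 had several symbols in the platform annotation and 39938 were unnamed, and neither were used; 30604 had 1 symbol. Entrez identifiers matched 22928 of them to RefSeq (GRCm38.p6) and updated 844 symbols. For 357 genes with several features the one with the highest mean was kept, leaving 30141 genes. All 46 members were matched.

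The values were fitted with limma 3.58.1 in R 4.3.3 (lmFit, eBayes; 4 group means, replicate number as a block), two-sided, with Benjamini-Hochberg adjustment over all 30141 genes. The pipeline was tested on simulated data. The protocols tie 4 pieces to each of 3 mice, but the labels never state that the replicate number is the mouse, so p-values may measure only the spread between these samples. Alternatives were no block, quantile normalization, median centring, fits of the compared groups, array weights, trended and robust variances, a filter on dim features, mean features, and leaving out arrays or replicates. Array values are given for the 8 called members of largest difference in each layer comparison and the interaction, the 4 largest in each region comparison, and 10 members throughout, while other pathway genes were named by smallest p, up to 4 a list. Any member may be named. Members, gene lists and tests were chosen with earlier results of these data known.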

Additional observations from a re-analysis of the deposited data

Results flagged for a closer look

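The layer difference (dendritic minus cell body) differed between CA2 and CA1 in 4 members by the interaction term of the limma fit. The CA2 difference minus the CA1 difference was -0.77 for Slc25a44 (adjusted p = 0.00302), -0.51 for Slc25a33 (adjusted p = 0.0239), -0.50 for Slc25a22 (adjusted p = 0.00526) and -0.41 for Slc25a29 (adjusted p = 0.027). For Slc25a44 and Slc25a29 the dendritic arrays lay above the cell body arrays in CA1 and below them in CA2, for Slc25a22 they lay below in both, and for Slc25a33 the layers overlapped in CA1. With 3 arrays in each group, no single array was tested for standing apart from its group.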

How the results depend on the processing

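Of 107 results for named genes, 80 were called; 28 of these were called in the same direction under every alternative, and 34 whichever replicate or array was left out. Without the oocyte arrays the counts of called members were 8 for the CA2 layers, 1 for the interaction, 8 for the cell body layers of the regions and 4 for the dendritic layers. Quantile normalization gave 7 for the interaction, median centring 22 for the cell body layers, and a fit of the compared groups alone 6 for the dendritic layers, and the cause was not tested. The interaction has no value in a fit of the compared groups alone. Leaving out a replicate or array gave 15 to 24 called members for the CA1 layers, 14 to 24 for the CA2 layers, 1 to 8 for the interaction, 5 to 15 for the cell body and 5 to 13 for the dendritic layers. The shares of all genes called in these fits were 32.2% to 48.8%, 26.5% to 35.2%, 2.31% to 16.2%, 11.4% to 22.4% and 12.2% to 32.2% in turn.

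The replicate numbers were a block in the model. Without the block 26, 23, 6, 15 and 15 members were called in the CA1 layers, CA2 layers, interaction, cell body and dendritic comparisons, which include every member called with it. Of all genes 49%, 35.3%, 14.6%, 22.8% and 33.6% were called in that fit. Of 18 pairs of arrays with the same number, 1 correlated above 0.1 in its deviations from the group means (range -0.3463 to 0.1316), against a highest value of 0.2509 among 36 other pairs, so the data do not show that the numbers pair the samples.

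Signs turned only in differences that were not called. In the dendritic layers of the regions, Slc25a5 was 0.07 and Slc25a22 0.03 after median centring, Slc25a12 was -0.002 after quantile normalization and Slc25a11 was -0.07 without the oocyte arrays. The interaction without the oocyte arrays was 0.03 for Slc25a12 and -0.16 for Slc25a18. Leaving out a replicate or array gave -0.09 to 0.01 for Slc25a5, -0.03 to 0.15 for Slc25a11 and -0.04 to 0.09 for Slc25a12 in the dendritic layers, -0.20 to 0.01 for Slc25a11 and -0.09 to 0.13 for Slc25a12 in the interaction, and -0.04 to 0.06 for Slc25a12 in the cell body layers.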
